A study of Mus musculus with 10 samples.

Results

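The 10 genes described here encode chaperones and quality-control proteases that help to fold and degrade proteins inside mitochondria. They are Hspd1, Hspe1, Hspa9, Trap1, Lonp1, Clpp, Clpx, Grpel1, Yme1l1 and Afg3l2. They were taken by symbol from a table of 57010 Ensembl gene identifiers, without use of any measured value, and each of the 10 matched 1 row. All 10 passed the filter on low counts, which kept 15539 genes. RNA was sequenced from retinas of mice that were 6 to 8 weeks old and had received an injection into the vitreous. In 5 mice the vector was AAV2-GFP and in 5 it was AAV206-GFP, adeno-associated virus vectors that carry a green fluorescent protein reporter, and retinas were taken 14 days later. The labels name no strain, sex or promoter. The series' title presents its vector as specific for the retinal pigment epithelium (RPE). Every difference below sets one vector against the other, since no uninjected retina was analysed here.

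Most mitochondrial proteins are made in the cytosol and imported unfolded. The matrix HSP70 (Hspa9), with its nucleotide exchange factor Grpel1, pulls them in and begins their folding, and the HSP60 chaperonin (Hspd1) with its HSP10 lid (Hspe1) completes the folding of many of them. Damaged or unassembled proteins are removed by ATP-dependent proteases, of which Lonp1 and the Clpx-Clpp pair act in the matrix while Afg3l2 and Yme1l1 sit in the inner membrane. Photoreceptors hold a dense band of mitochondria in their inner segments, and the retina is among the tissues with the highest oxygen use.

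Total counts ranged from 10989843 to 12752604 per library, so that 3 counts, taken as the floor, correspond to at most 0.274 CPM (counts scaled to a common library size), far under every member. Rods, the most numerous retinal cells, gave a summed level of 6 marker genes between 51842 and 60997 CPM over all 10 libraries. Markers of cells outside the neural retina were low but uneven. The 5 tested microglia and macrophage markers summed to 20.7 to 170 CPM with AAV2-GFP and 17.5 to 24.1 CPM with AAV206-GFP. Erythrocyte markers summed to 67.8 to 85.8 and 101 to 319 CPM, and the 3 tested lens markers to 8.80 to 25.8 and 0.456 to 9.93 CPM, with the lens membrane gene Lim2 at 0 in all 10 libraries. The 5 tested RPE markers summed to at most 39.3 and 23.5 CPM. None of the 6 lymphocyte markers passed the filter. The part of these cells in the results below was not tested. In whole retina, fewer cells of a type and less RNA per cell cannot be told apart.

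Most of the mitochondrial chaperones and proteases did not pass the test. Their summed level was 661 to 727 CPM with AAV2-GFP and 658 to 714 CPM with AAV206-GFP. With edgeR at an adjusted p-value under 0.05, 2 of the 10 passed, Hspd1 as lower and Afg3l2 as higher with AAV206-GFP. Over all tested genes 11.2% passed, 5.95% as higher and 5.3% as lower, so a count of 2 in 10 is near the background. The log2 fold change was negative for 5 members and positive for 5, and its median was -0.03, against -0.0095 over all tested genes. The groups did not overlap for Hspd1 and Afg3l2, where 9.78% of all tested genes showed no overlap.

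**Figure D1:**
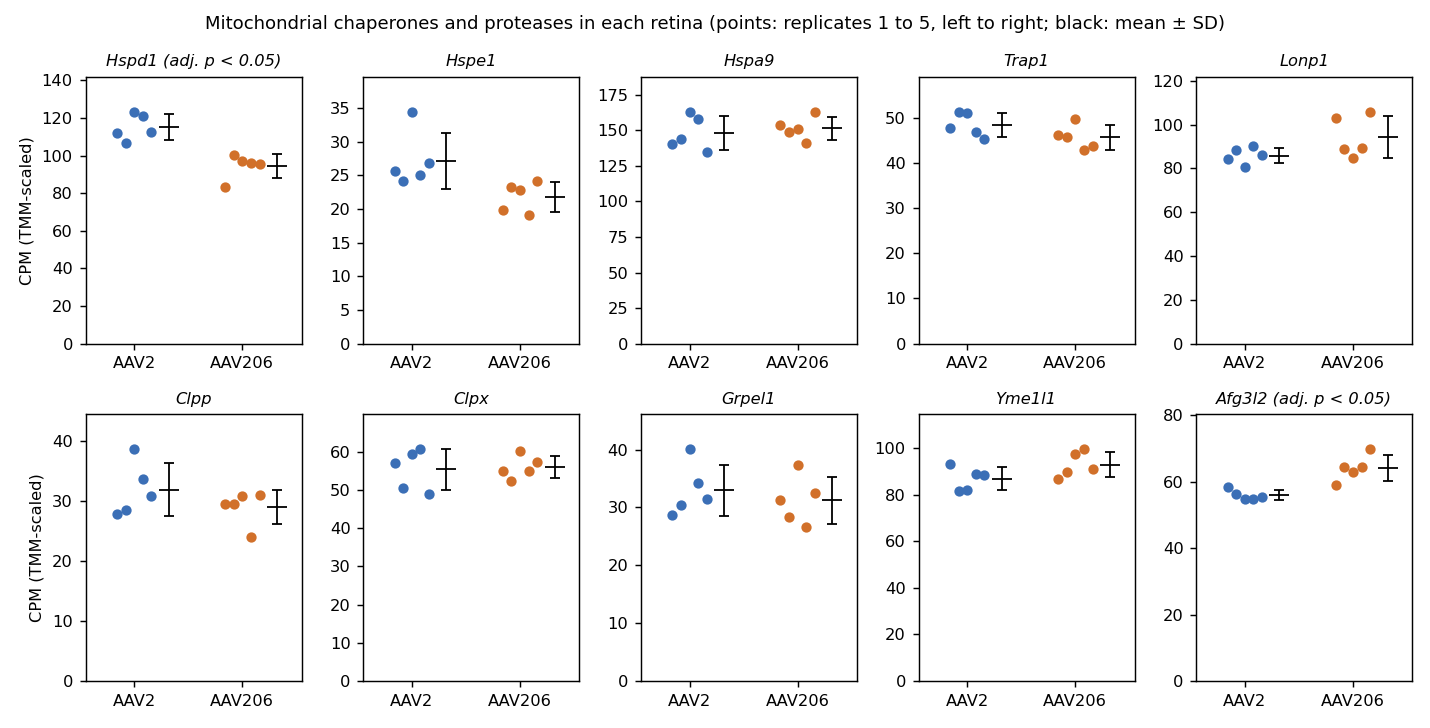
Level of each mitochondrial chaperone or protease in CPM (y axis from 0, scaled per panel) in the 5 AAV2-GFP retinas (blue) and the 5 AAV206-GFP retinas (orange); points are replicates 1 to 5 from left to right and black marks give the mean ± SD. The AAV206-GFP retinas lie below every AAV2-GFP retina for Hspd1 and above every one for Afg3l2, and the groups overlap for the other 8 genes.

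Hspd1 (ENSMUSG00000025980, chr1:55077835-55088243 on the minus strand of GRCm38) encodes HSP60, the barrel-shaped chaperonin of the matrix. Its level was 112, 107, 123, 121 and 113 CPM in AAV2-GFP replicates 1 to 5. In AAV206-GFP replicates 1 to 5 it was 83.5, 100.2, 96.9, 96.2 and 95.3 CPM. Every AAV206-GFP retina was thus below every AAV2-GFP retina, and AAV206-GFP replicate 1 was the lowest of all. The group means were 115 ± 6.89 and 94.4 ± 6.35 CPM (SD, n = 5), and Hspd1 fell by 18.1%, or -0.29 ± 0.06 on the log2 scale (standard error; edgeR adjusted p = 0.00993). The 95% interval of the ratio of AAV206-GFP to AAV2-GFP was 0.745 to 0.901. Without AAV2-GFP replicates 1 and 4, a pair chosen from an earlier analysis of these data, the log2 fold change was -0.28 (edgeR adjusted p = 0.0472). The microglia and macrophage score (mean log2(CPM + 1) of the 5 tested markers) was highest in AAV2-GFP replicate 1 at 4.82, with replicates 3 and 4 at 3.00 and 2.82, so this score does not single out replicate 4.

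Hspd1 shares reads with other sequences, since its estimated counts carried decimals in 7 of 10 libraries. The decimal part was at most 0.00379% of its value. Of the pseudogenes named after it, Hspd1-ps3 held 38.1 counts and Hspd1-ps4 held 2 counts in all 10 libraries together, against 993 to 1594 counts per library for Hspd1. The Hspd1 level is uncertain to the extent that shared reads were divided between these copies.

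Hspe1 (ENSMUSG00000073676, chr1:55088132-55091307 on the plus strand of GRCm38) encodes HSP10, the lid that closes the HSP60 barrel. Its level was 25.6, 24.1, 34.4, 25.0 and 26.8 CPM in AAV2-GFP replicates 1 to 5. With AAV206-GFP it was 19.8, 23.3, 22.9, 19.1 and 24.1 CPM in the same order. Of the AAV206-GFP retinas 4 were below every AAV2-GFP retina, and AAV206-GFP replicate 5 met AAV2-GFP replicate 2 at 24.1 CPM. The means were 27.2 ± 4.16 and 21.8 ± 2.23 CPM (SD, n = 5). On the log2 scale this was -0.32 ± 0.11 (standard error), and Hspe1 did not pass (edgeR adjusted p = 0.0661). DESeq2 placed Hspe1 just past the threshold (adjusted p = 0.0468). Without AAV2-GFP replicate 3, the highest retina, the log2 fold change was -0.22 (edgeR adjusted p = 0.167).

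The ratio of Hspd1 to Hspe1 counts within a library does not depend on how libraries are scaled. It was 4.38, 4.43, 3.58, 4.85 and 4.20 in AAV2-GFP replicates 1 to 5 and 4.23, 4.31, 4.24, 5.03 and 3.96 in AAV206-GFP replicates 1 to 5. AAV2-GFP replicate 3 had the lowest ratio and AAV206-GFP replicate 4 the highest, and the groups overlapped. The means were 4.29 ± 0.46 and 4.35 ± 0.40 (SD, n = 5). The difference in the mean log2 ratio was 0.02 (exact two-sided permutation test, p = 0.825, adjusted over 5 pairs 0.825). Neither this ratio nor those below were corrected for the trends of each library with transcript length and GC content. With these trends taken out, the edgeR log2 fold change was -0.32 for Hspd1 and -0.23 for Hspe1. The ratios were not tested under that setting.

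Hspd1 and Hspe1 lie head to head on opposite strands, and their gene models overlap by 112 bases. Because the labels do not state whether reads were counted by strand, reads from that stretch cannot be assigned to either gene with certainty. RefSeq promoter windows, which run from 250 bases before to 50 after each annotated start on GRCm38.p6, were given for 8 of the 10 members. Hspa9 and Afg3l2 had none in that table. The windows were searched on both strands for the heat shock element GAANNTTC or TTCNNGAA, bound by heat shock factors. Of all 32851 windows, 15.1% held a match. The windows of 3 members did, those of Hspd1, Hspe1 and Clpp. In Hspd1 and Hspe1 it is the same DNA, an 18-base run at chr1:55088059-55088076 that begins 89 bases before the RefSeq start of Hspe1, lies inside the annotated span of Hspd1 and holds 3 overlapping matches, that is 4 alternating units of GAA and TTC. The lone match in Clpp starts at position 34 after its RefSeq start. It ends at chr17:56990304, just before the gene span given below for Clpp. Sites are shown 5′ to 3′ on the strand of the named gene, with the matched bases in capitals. They set the 18-base run beside the Clpp match and beside matches of the cytosolic chaperone genes Hsph1 and Hspa1a.
Hspe1, chr1:55088053-55088082: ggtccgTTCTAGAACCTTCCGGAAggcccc
Clpp, chr17:56990284-56990313: ccgggtgttgtagTTCCGGAAgccaagccg
Hsph1, chr5:149636351-149636380: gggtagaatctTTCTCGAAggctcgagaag
Hsph1, chr5:149636287-149636316: agtaaaatgctgcagaTTCTGGAAAGTTCt
Hspa1a, chr17:34972242-34972271: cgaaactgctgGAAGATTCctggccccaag

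A run of 4 alternating units, a form searched only after these windows had been seen, occurred in 8 of all 32851 windows (0.0244%). The windows belonged to 6 tested genes. Chordc1, a cochaperone of HSP90, fell with a log2 fold change of -0.65 (edgeR adjusted p = 3.44e-05), and Hspd1 was the other gene of the 6 that passed. Hspe1 (-0.32), Arpc2 (-0.16), Kctd18 (0.12) and Fam149a (0.00045) did not. Of the 1538 tested genes with any match in a window 6.31% were called lower and 6.31% higher, against 5.45% and 6.24% of the 11158 tested genes with a window. A match of letters is a description and not a measured binding site.

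Other motifs were searched in the same windows. The C/EBP-CHOP element TGCAAT, present in 8.40% of all windows, was found at the shared Hspd1-Hspe1 start region only, 199 bases before the start of Hspe1, and no member window held the ATF4 element TGATGCAA (0.895% of all windows). The E box CACGTG, present in 7.15% of windows, was found for Lonp1 and for the upstream start of Hspd1. The NRF1 element, a pair of GC-rich half-sites with a spacer, occurred for Hspd1 and Hspe1 (6.23% of windows), and the CCAAT box CCAAT for Hspd1, Clpx, Grpel1 and Yme1l1 (37.4% of windows). The TGCAAT site and the Lonp1 E box site read as follows, in the same notation.
Hspe1, chr1:55087937-55087966: acgccggggcccTGCAATctgcatgcggcg
Lonp1, chr17:56626922-56626951: cgcgagcgtcatCACGTGcgcaaacggggg

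**Figure D2:**
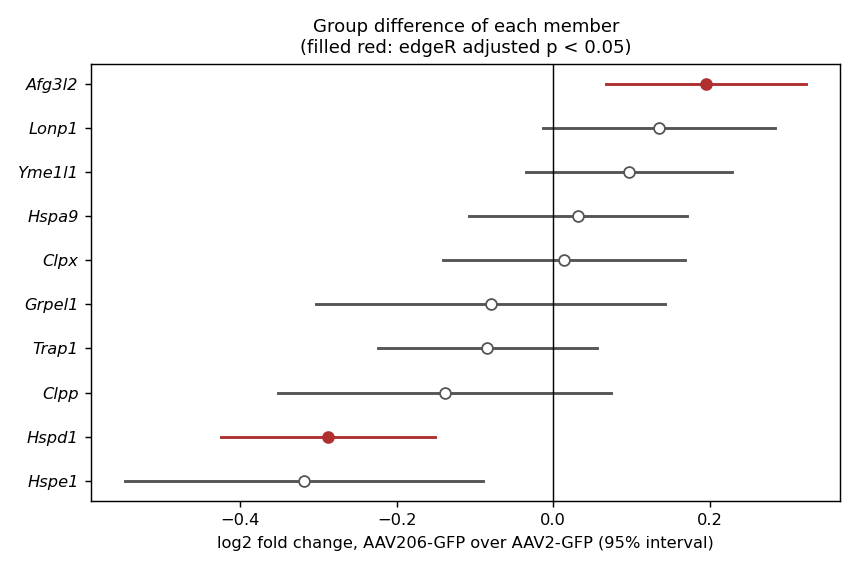
Log2 fold change of each member, AAV206-GFP over AAV2-GFP (x axis), with its 95% interval from edgeR (lines); filled red points passed an adjusted p-value of 0.05. Hspd1 at -0.29 and Afg3l2 at 0.20 passed, and the 7 other intervals apart from that of Hspe1 include 0.

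Neither gene of the matrix HSP70 system passed the test. Hspa9 (ENSMUSG00000024359, chr18:34937414-34954357 on the minus strand), which encodes mortalin, was at 141, 144, 163, 158 and 135 CPM in AAV2-GFP replicates 1 to 5 and at 154, 149, 151, 141 and 163 CPM in AAV206-GFP replicates 1 to 5. The groups overlapped over nearly their whole ranges. For Hspa9 the log2 fold change was 0.03 with a 95% interval of -0.11 to 0.17 (edgeR adjusted p = 0.792). Grpel1 (ENSMUSG00000029198, chr5:36464998-36474080 on the plus strand), the GrpE-type factor that releases ADP from Hspa9, was at 28.7, 30.4, 40.1, 34.2 and 31.5 CPM with AAV2-GFP and at 31.3, 28.4, 37.3, 26.6 and 32.5 CPM with AAV206-GFP. Replicate 3 was the highest retina for Grpel1 in both groups, which overlapped. The log2 fold change was -0.08 with a 95% interval of -0.30 to 0.14 (edgeR adjusted p = 0.656). Grpel1 carried decimals in all 10 libraries and overlaps Tada2b on the opposite strand by 411 bases, so its level is uncertain. The ratio of Grpel1 to Hspa9 counts was 0.222 ± 0.017 and 0.206 ± 0.024 (SD, n = 5), and the groups overlapped (exact two-sided permutation test, p = 0.222, adjusted 0.278).

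Trap1 (ENSMUSG00000005981, chr16:4039971-4077827 on the minus strand) encodes the HSP90 of mitochondria. It was at 47.6, 51.3, 51.0, 46.8 and 45.2 CPM with AAV2-GFP and at 46.3, 45.7, 49.8, 42.8 and 43.8 CPM with AAV206-GFP. The lowest 2 AAV206-GFP retinas were below all AAV2-GFP retinas and the rest overlapped. Its log2 fold change was -0.08 with a 95% interval of -0.22 to 0.06 (edgeR adjusted p = 0.429).

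None of the soluble matrix proteases passed the test. Lonp1 (ENSMUSG00000041168, chr17:56614297-56626887 on the minus strand), the LON protease that degrades oxidised and misfolded matrix proteins, was at 84.2, 88.2, 80.8, 90.0 and 86.2 CPM with AAV2-GFP. With AAV206-GFP it was at 103, 88.9, 84.6, 89.3 and 106 CPM. AAV206-GFP replicates 1 and 5 were above every other retina, while the other 3 lay within the AAV2-GFP range. The log2 fold change was 0.14 with a standard error of 0.07 and a 95% interval of -0.01 to 0.28 (edgeR adjusted p = 0.218). When the trends of each library with transcript length and GC content were taken out, a setting added after the data were seen, Lonp1 passed with a log2 fold change of 0.19 (edgeR adjusted p = 0.0338).

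Clpx (ENSMUSG00000015357, chr9:65294260-65330658 on the plus strand) is the unfoldase that feeds substrates to the peptidase Clpp (ENSMUSG00000002660, chr17:56990305-56996188 on the plus strand). Clpx was at 49.0 to 60.7 CPM with AAV2-GFP and 52.4 to 60.2 CPM with AAV206-GFP, a log2 fold change of 0.01 with a 95% interval of -0.14 to 0.17 (edgeR adjusted p = 0.922). Clpp was at 27.8, 28.4, 38.6, 33.6 and 30.8 CPM with AAV2-GFP and at 29.4, 29.5, 30.8, 24.0 and 30.9 CPM with AAV206-GFP. AAV206-GFP replicate 4 was the lowest retina and AAV2-GFP replicate 3 the highest, with the rest overlapping. Its log2 fold change was -0.14 with a 95% interval of -0.35 to 0.07 (edgeR adjusted p = 0.385). Within libraries, Clpx counts were 1.76 ± 0.20 and 1.95 ± 0.20 times those of Clpp (SD, n = 5; exact two-sided permutation test, p = 0.175, adjusted 0.278). Lonp1 counts were 2.74 ± 0.40 and 3.28 ± 0.39 times those of Clpp, and 3 AAV206-GFP retinas were above every AAV2-GFP retina. This ratio differed most among the 5 pairs, by 0.26 on the log2 scale, and did not pass (exact two-sided permutation test, p = 0.0794, adjusted 0.278, where 0.00794 is the smallest p that 252 relabellings allow).

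Afg3l2 (ENSMUSG00000024527, chr18:67404764-67449172 on the minus strand), an ATP-dependent inner membrane protease facing the matrix, was the member that rose. It was at 58.4, 56.4, 54.8, 54.7 and 55.4 CPM in AAV2-GFP replicates 1 to 5. In AAV206-GFP replicates 1 to 5 it was at 58.9, 64.4, 62.9, 64.3 and 69.8 CPM. The groups did not overlap, although AAV206-GFP replicate 1 was close to AAV2-GFP replicate 1. The means were 55.9 ± 1.54 and 64.1 ± 3.91 CPM (SD, n = 5), an increase of 14.5% with a log2 fold change of 0.20, a standard error of 0.06 and a 95% interval of the ratio of 1.05 to 1.25 (edgeR adjusted p = 0.0480). This call sat at the threshold. It was lost when any 1 library other than AAV206-GFP replicate 1 was left out, with edgeR adjusted p-values of 0.0509 to 0.119 in those 9 fits.

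Yme1l1 (ENSMUSG00000026775, chr2:23156369-23199260 on the plus strand), the inner membrane protease that faces the intermembrane space, was at 93.0, 81.6, 81.8, 88.8 and 88.5 CPM with AAV2-GFP and at 86.6, 89.6, 97.4, 99.5 and 91.0 CPM with AAV206-GFP. AAV206-GFP replicates 3 and 4 were above all AAV2-GFP retinas. For Yme1l1 the log2 fold change was 0.10 and its 95% interval -0.03 to 0.23 (edgeR adjusted p = 0.322). The ratio of Afg3l2 to Yme1l1 counts was 0.646 ± 0.033 and 0.692 ± 0.052 (SD, n = 5; exact two-sided permutation test, p = 0.135, adjusted 0.278). Spg7, the partner subunit of Afg3l2 in the same protease complex, was at 101 ± 3.49 and 108 ± 8.60 CPM (SD, n = 5; log2 fold change 0.10, edgeR adjusted p = 0.335), while Afg3l1, its close relative, rose from 47.3 ± 3.65 to 55.8 ± 2.38 CPM (log2 fold change 0.24, edgeR adjusted p = 0.0307). These 2 genes were picked out after their values were seen.

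Levels between genes were compared per length, as CPM per kilobase of the principal transcript in GENCODE M21. Over the 10 libraries, Hspa9 was the most abundant at 49.1 ± 3.17 CPM per kilobase (SD, n = 10), followed by Hspd1 at 43.3 ± 5.21. Their ranges overlapped, with Hspa9 ahead in 8 of 10 libraries. Hspe1, Clpp and Lonp1 came next at 31.7 ± 5.47, 30.9 ± 3.87 and 30.5 ± 2.73, and did not differ beyond their spread. Hspd1 exceeded Hspe1 in every library. Trap1 (20.3 ± 1.26), Afg3l2 (19.4 ± 1.65), Clpx (19.3 ± 1.40) and Yme1l1 (19.1 ± 1.24) came next with overlapping ranges, all below Lonp1 in every library. Grpel1, the exchange factor, was lowest at 9.09 ± 1.17, and the span from Grpel1 to Hspa9 was 5.40-fold. The Grpel1 value divides by a principal transcript of 3.53 kilobases. The spread between mice of a group was 12.0% to 13.3% of the mean for Hspe1, Clpp and Grpel1 and 4.73% to 7.69% for the other 7 members. Those 3 genes also had the lowest counts, from 213 to 518 per library.

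After the group means were removed, members varied together only in part over the 10 retinas. Of 45 pairs, 29 had a positive Pearson correlation of log2(CPM + 1), and the median r was 0.28. The permutation test shuffled deviations over all 10 retinas, across both groups, without allowing for the removed group means. Its p-values are therefore likely too small, and the passes below are not secure. One pair passed adjustment over the 45, Clpp with Grpel1 (r = 0.89, permutation p = 0.00039, adjusted 0.0175; Spearman rho = 0.92, permutation p = 0.00058, adjusted 0.0261; n = 10). Without the 2 retinas farthest from the median of Clpp, r was 0.77. Without AAV2-GFP replicate 1, r was 0.86 and its adjusted permutation p over 9 retinas was 0.127. Hspa9 with Clpp (r = 0.82, rho = 0.87) and Hspe1 with Clpp (r = 0.81, rho = 0.81) followed, each with an adjusted permutation p of 0.0664 for r and raw permutation p-values of 0.00443 and 0.00425. Scaled by library size alone, 3 pairs passed, these among them, with adjusted permutation p-values of 0.0468 for both. AAV2-GFP replicate 3, the retina with the highest total count, was high for Hspe1, Hspa9, Clpp and Grpel1 together, and the part of depth in this was not tested. The divergent pair Hspd1 and Hspe1 had r = 0.59 and rho = 0.58 (permutation p = 0.0723 and 0.0883, adjusted 0.390 and 0.447), and without the 2 retinas farthest in Hspd1 r was 0.46. The most negative pair was Hspd1 with Lonp1 (r = -0.51, rho = -0.59, adjusted permutation p = 0.528 and 0.447).

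**Figure D3:**
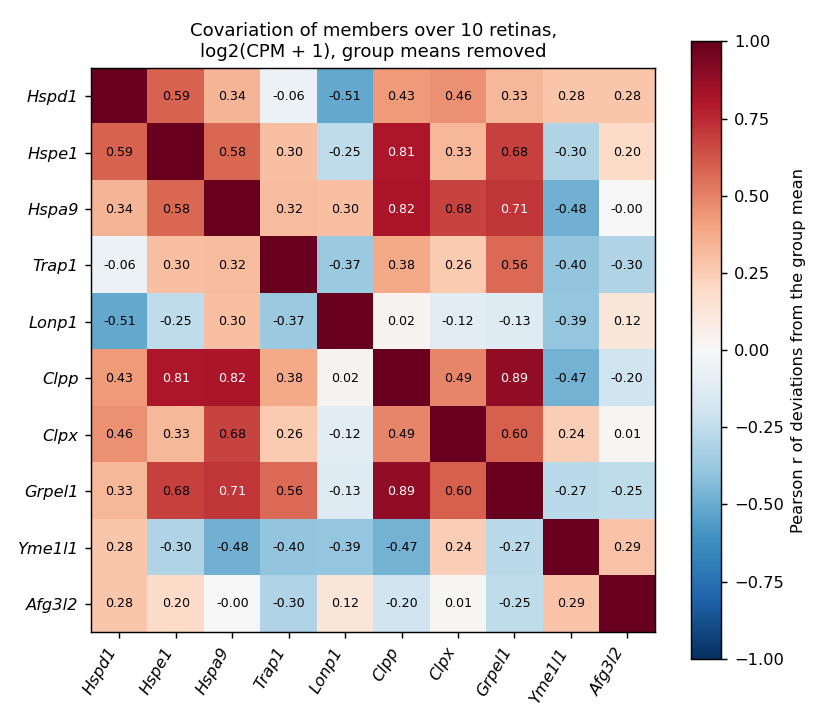
Pearson correlation between members over 10 retinas, computed on log2(CPM + 1) after subtracting each group's mean (red positive, blue negative; the number in each cell is r). Pairs among Clpp, Grpel1, Hspa9 and Hspe1 had values from 0.58 to 0.89. In the same range were Clpx with Hspa9 (0.68) and Grpel1 (0.60), and Hspd1 with Hspe1 (0.59). The values of Yme1l1, Afg3l2 and Lonp1 with other members reach 0.30 at most.

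Among 10270 candidates (means of 10 CPM or more), the genes most like Hspd1 in the same deviations over 10 retinas were Bud31 (r = 0.94), Mxi1 (r = 0.93) and Pspc1 (r = 0.93). The genes most like Afg3l2 were Nus1 (r = 0.96), Lman2l (r = 0.94) and Glmn (r = 0.94). These are the highest of many values and carry no test. Between the vectors Pspc1 rose (log2 fold change 0.40, edgeR adjusted p = 0.0139) and Lman2l fell (log2 fold change -0.39, edgeR adjusted p = 0.00271).

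The wider mitochondrial protein quality network showed scattered changes. Of 14 other chaperones and assembly factors, 1 passed with edgeR, as higher, and 13 did not. It was Atpaf1, an assembly factor of ATP synthase, with a log2 fold change of 0.35 (edgeR adjusted p = 0.00526). Hspa14, which was listed there, is a cytosolic ribosome-associated protein and did not pass (log2 fold change -0.00014). Of 17 other mitochondrial proteases and peptidases 4 rose and none fell. They included the methionine aminopeptidase Metap1d (log2 fold change 0.31, edgeR adjusted p = 0.00357), the aminopeptidase Xpnpep3 (0.48, edgeR adjusted p = 0.0157) and neurolysin, Nln (0.59, edgeR adjusted p = 0.0277). Of the 10 fits that each dropped a library, Nln passed in 5. The median log2 fold change of these 17 proteases was 0.08.

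Genes of protein import gave 2 higher and 1 lower among 25, with a median of -0.11. Their transcripts ran from 518 bases (Timm8b) to 7280 bases (Timm17a). The list medians were not corrected for the trend with transcript length described below, and its part in them was not tested. Tomm20, a receptor of the outer membrane, rose (log2 fold change 0.30, edgeR adjusted p = 0.00528), and so did Timm44, which tethers Hspa9 to the import channel (0.26, edgeR adjusted p = 0.0459). The small subunit Tomm6 fell (-0.44, edgeR adjusted p = 0.0122), with decimals in all 10 libraries. Timm44 passed in 1 of those 10 fits. Of 11 inner membrane scaffold and fusion genes, Opa1, the fusion GTPase that is cut by Yme1l1, passed as higher (0.33, edgeR adjusted p = 0.00345). Among 12 mitophagy genes, Bnip3 fell (-0.36, edgeR adjusted p = 0.00816) and Fbxl4 rose (0.60, edgeR adjusted p = 0.0124). Without AAV2-GFP replicates 1 and 4, Fbxl4 passed (edgeR adjusted p = 0.0277) and Bnip3 did not (-0.31, edgeR adjusted p = 0.0525). None of 14 genes listed as matrix enzymes and carriers that mark mitochondrial content passed with edgeR, and their median was -0.03. That list also holds outer membrane channels and an inner membrane enzyme.

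Of 15 stress signalling and regulatory genes, 3 fell and 1 rose. The transcription factors Ddit3 (CHOP), Atf5 and Atf4, which have been linked to the response to unfolded proteins in mitochondria, fell by 0.42, 0.43 and 0.26 on the log2 scale (in that order, edgeR adjusted p of 0.0112, 0.0362 and 0.0486), and Foxo3 rose by 0.21 (edgeR adjusted p = 0.0391). Atf4 was picked out after its values were seen. Over the same 10 fits, Ddit3 passed in 10, Atf5 in 4 and Foxo3 in 2. Atf4 did not pass without AAV2-GFP replicate 3 or 4, or without AAV206-GFP replicate 1, 2, 3 or 4. In each of those fits Ddit3 was the only gene of the list called lower. The count of called genes in this list was 1 without AAV2-GFP replicates 1 and 4. Hsf1, a heat shock factor also picked out afterwards, was at 39.6 ± 1.78 and 40.8 ± 5.79 CPM (SD, n = 5; log2 fold change 0.05, edgeR adjusted p = 0.771).

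Of 12 cytosolic heat shock chaperones, 11 fell and none rose, with a median log2 fold change of -0.60. Hspa8 went from 1418 ± 67.1 to 725 ± 45.2 CPM (SD, n = 5; log2 fold change -0.97, edgeR adjusted p = 7.5e-08), and Hsph1 and Stip1 had -0.82 and -0.59 (edgeR adjusted p = 4.99e-05 and 6.42e-05). Hspa8 carried decimals in all 10 libraries. Whether the difference of Hspd1 was smaller than those was not tested.

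**Figure D4:**
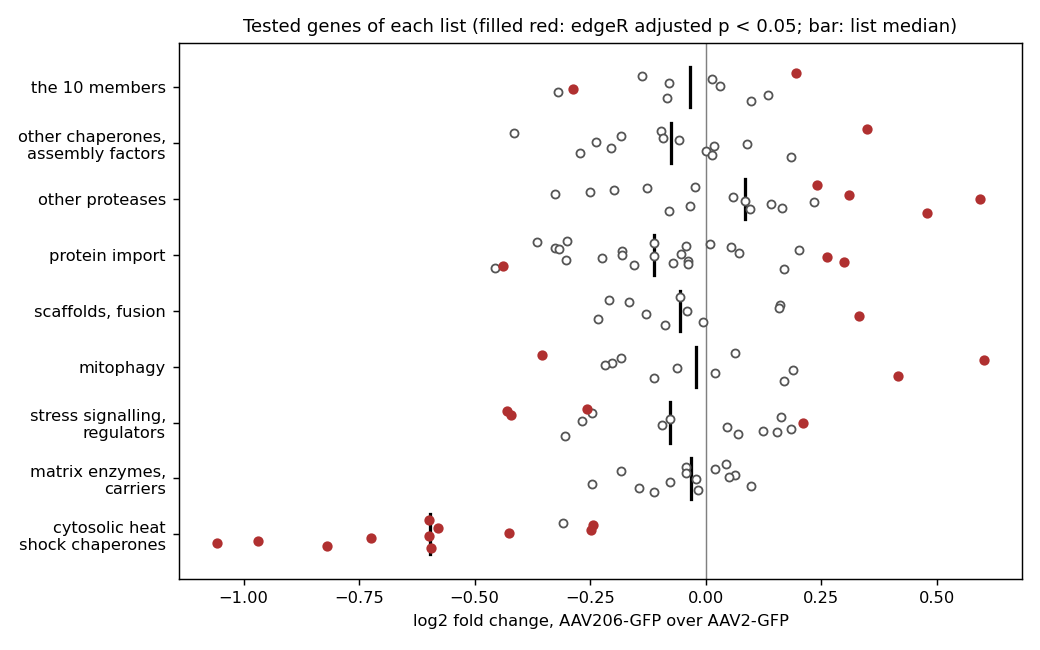
Log2 fold change, AAV206-GFP over AAV2-GFP (x axis), of every tested gene in each list (rows); filled red points passed an edgeR adjusted p-value of 0.05 and black bars are list medians. The mitochondrial lists centre between -0.11 and 0.08 with called genes on either side, and the cytosolic heat shock chaperones centre at -0.60.

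Differences between the vectors followed transcript length over all genes. The median log2 fold change was -0.14 in the shortest of 10 equal classes (transcripts of 204 to 1218 bases) and 0.10 in the longest class (6480 bases and more). Hspe1 (774 bases) and Clpp (983 bases) lie in the shortest class, and Clpp at -0.14 was at the median of its class. Hspe1 was 0.18 below that median on the log2 scale. Hspd1 (2423 bases) was 0.26 below the median of its own class, and Afg3l2 (3094 bases) was 0.20 above its own. With the trends in length and GC content taken out, Hspd1 had a log2 fold change of -0.32 (edgeR adjusted p = 0.00262), Hspe1 of -0.23 (adjusted p = 0.0908) and Afg3l2 of 0.18 (adjusted p = 0.0469). Clpp turned from -0.14 to 0.02 under this setting (edgeR adjusted p = 0.885).

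**Figure D5:**
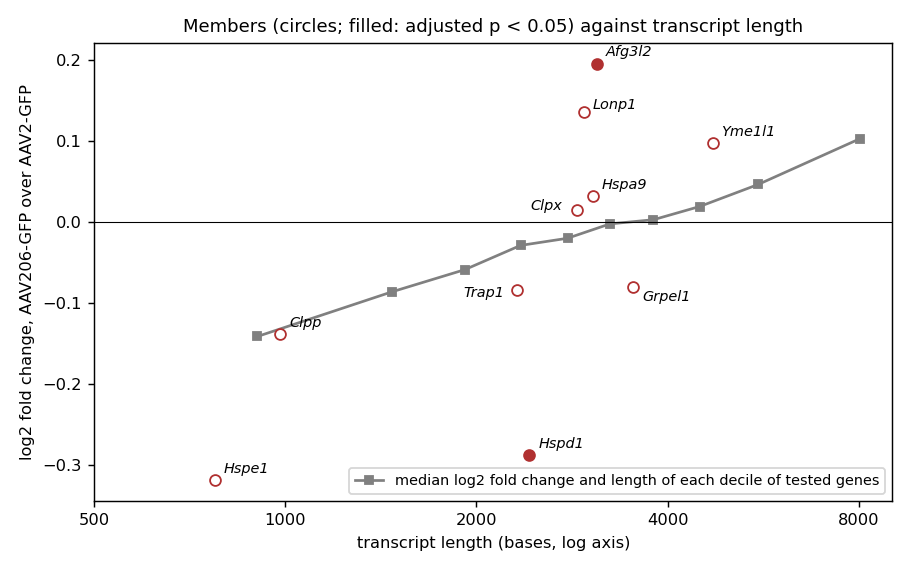
Log2 fold change of each member (circles; filled where the edgeR adjusted p-value was under 0.05) against the length of its principal transcript in bases on a log axis; grey squares give the median log2 fold change of all tested genes in each of 10 length classes, at the median length of that class. The grey line climbs from -0.14 to 0.10, Clpp lies on it, and Hspd1 and Afg3l2 lie farthest from it.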

How the data were processed

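Retinal RNA of 10 mice was compared, 5 per vector, grouped by sample title. The deposited values are estimated counts per Ensembl gene, not scaled between libraries. The submitters' processing notes name STAR 2.7.10b, RSEM 1.3.1 and the build mm10, without roles; per the labels' protocols, libraries came from an NEBNext Ultra RNA kit. Counting by strand and the annotation release are not given in the sources used here, and 4981 of the 57010 identifiers are absent from GENCODE M21, which supplied symbols for 98.4% of tested genes, GRCm38 coordinates and lengths of principal (APPRIS) transcripts.

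Values (5.95% with decimals) were rounded. Genes passing filterByExpr (minimum count 10) were tested in edgeR 4.0.16 (R 4.3.3) with TMM scaling, a quasi-likelihood F test over all 10 libraries without covariates, and Benjamini-Hochberg adjustment over all 15539 genes at 0.05. Standard errors are the absolute log2 fold change over the root of F. CPM uses TMM-scaled library sizes. Ratios used exact permutation over 252 relabellings, and correlations used 100000 permutations with a pseudocount of 1. The correlation permutations ran across both groups and did not allow for the removed group means. The labels give separate mice, and p-values measure the spread between these 10 samples. Intervals and the floor of 3 counts cover counting error and that spread only, since PCR reads without molecular identifiers are not independent molecules. No libraries of a group agreed within sampling noise (chi-square per degree of freedom 3.68 to 22.3). The procedure was tested on simulated counts.

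The members and lists were chosen with earlier results of these data known. All members are named, with up to 3 called genes per other list by smallest p-value and the 3 genes most like each called member; other named genes were picked after their values were seen. One called gene of the lists is not reported here. The alternatives were other scalings, filters and tools (DESeq2 1.42.0, limma 3.58.1), a replicate block, omitted libraries, and length and GC offsets.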

Additional observations from a re-analysis of the deposited data

Results flagged for a closer look

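In 30 group values of members and ratios (5 mice each), a gap between 1 mouse and the rest was compared with Dixon's critical value of 0.710, and 3 were past it where 1.5 would be reached by chance. Hspe1 was at 34.4 CPM in AAV2-GFP replicate 3 where the rest of that group lay between 24.1 and 26.8 CPM (gap over range 0.734). Clpp was at 24.0 CPM in AAV206-GFP replicate 4 against 29.4 to 30.9 CPM (ratio 0.783). The ratio of Grpel1 to Hspa9 counts was 0.247 in AAV206-GFP replicate 3 against 0.189 to 0.204 (ratio 0.742).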

How the results depend on the processing

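Of the members, Hspd1 was past the edgeR, DESeq2 or limma threshold in all 24 alternatives (log2 fold change -0.32 to -0.25), Hspe1 in 1 and Lonp1 in 2 of 24. Afg3l2 was past it in 1 of the 10 fits that left out 1 library and in 8 of the 14 other alternatives. The count of members called (2) was 1 without a filter, with limma-voom, with robust dispersions, with the replicate block and without AAV2-GFP replicates 1 and 4, each time by loss of Afg3l2, and 1 to 2 when any 1 library was left out. It was 3 with DESeq2 (Hspe1 added) and with the length and GC offset (Lonp1 added). With that offset and the replicate block together it was 2, with Lonp1 in place of Afg3l2. The number of genes called (1747) was 985 without AAV2-GFP replicates 1 and 4, and 991 to 1912 over the fits that left out 1 library (991, 1074 and 1056 without AAV2-GFP replicate 4, AAV206-GFP replicate 2 and AAV206-GFP replicate 4). It was 2254 with DESeq2 and 2157 with weighted limma-voom. With the replicate block it was 1085, of which 1061 were among the 1747. Same-numbered mice deviated together (r above 0.1) in 1 of 5 numbers, and 1 of 10 libraries correlated best with its own number, so the numbers are not treated as pairs. The permutation p-values of the correlations are likely too small, as stated above. Pairs of members with a correlation past the threshold (1) were 0 without AAV2-GFP replicate 1 and 3 with library sizes only. None of the ratio differences passed under any of 55 alternatives (lowest adjusted exact permutation p 0.0794). For each ratio, 1 of these was an exact sign-flip test with the replicate block. With 5 mice per group that test cannot reach a p under 0.05, so its outcome is not informative. The difference of Hspd1 to Hspe1 turned to -0.0402 without AAV2-GFP replicate 3 and -0.0305 without AAV206-GFP replicate 4. Its range was -0.0402 to 0.0692. The ranges of the log2 differences for the other pairs were 0.09 to 0.21 for Clpx to Clpp, -0.18 to -0.07 for Grpel1 to Hspa9, 0.06 to 0.12 for Afg3l2 to Yme1l1 and 0.17 to 0.32 for Lonp1 to Clpp.

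Values near 0 changed sign and stayed uncalled. Over the fits that left out 1 library, Clpx ranged from -0.0275 to 0.0486 (below 0 without AAV2-GFP replicate 2 or 5 or AAV206-GFP replicate 3), Hspa9 from -0.000834 (without AAV2-GFP replicate 5) to 0.0673, and Mxi1 from -0.0464 to 0.0630. With length and GC offsets, without and with the replicate block, Hspa9 was -0.0035 and -0.0018, Clpx -0.0231 and -0.0206, and Clpp 0.0214 and 0.0240. Mxi1 (-0.0037) was 0.0062 with upper-quartile factors, 0.0361 with weighted limma-voom and 0.0155 without AAV2-GFP replicates 1 and 4. The stress signalling list gave 1 to 5 called genes and the mitophagy list 1 to 6 over all settings. The cause of these changes was not tested. The 95% intervals of the ratios of the 7 uncalled members other than Hspe1 lie within 0.784 to 1.22; counting error and the spread between mice were not separated.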
